A study of Mus musculus with 3 samples.

Results

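The regions described are 974 FAIRE-seq peaks that lay deep inside protein-coding genes of the mouse uterus on gestation day 4. FAIRE-seq recovers DNA that is not crosslinked to protein, and its peaks mark chromatin depleted of nucleosomes. Of the 12413 peaks deposited, these are the ones whose centre fell within the RefSeq span of a protein-coding gene, more than 1 kb from the end of any annotated gene and more than 5 kb from both ends of every protein-coding gene around it. They were thus chosen by position and, of the measured values, by pileup and fold, since peaks whose local background, computed as (pileup + 1) / fold − 1, exceeded 21 were left out. That removed 9. The tissue came from 3 pregnant C57BL/6J wild-type females aged 6 to 10 weeks, mated with fertile males and otherwise untreated. Each sample was a whole uterus, so the signal mixes every cell type of the organ, from the epithelium to the myometrium. The authors' 1 peak list does not say which mouse a value came from. Variation between mice is therefore not known, no mouse could be left out, and no difference between sets of peaks was tested. The depth of the libraries is unknown.

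Open chromatin inside a gene can have several roles. Many mammalian genes carry more than 1 promoter, and a start site that lies far inside the longest transcript serves a shorter one. Promoters rich in CpG dinucleotides, known as CpG islands, tend to stay free of nucleosomes in most tissues. Introns also hold enhancers, which are bound by transcription factors and are often open in only some cell types. In the uterus before implantation, the receptors of progesterone and oestrogen bind many such sites.

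The deep peaks divided into a set at start sites inside their host genes and a set with no such start nearby. A RefSeq table of start sites listed at least 1 start for the host gene of 792 of the 974 peaks. Of those 792, 379 (47.9%, 95% Wilson interval 44.4 to 51.3) had their summit within 500 bases of a listed start of the host. The intervals given here cover counting error only. Because the peaks lie more than 5 kb from the host's outermost ends, these starts lie well inside the host's annotated span. For some hosts such a start was the only one listed. Of the remaining 413, 330 had no listed start of the host within 5000 bases, and 43 lay 501 to 1000 bases away. The hosts of 182 peaks were not in the start table.

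The starts are best seen in genes with a listed start at the 5′ end as well. In the sequences that follow, each line gives the 250 bases before a start, 5′ to 3′ on the strand of the gene, from RefSeq in build GRCm38.p6, with every CpG dinucleotide in capitals. They were chosen after the values were seen: 3 genes among those with the strongest peak at a deep start, a smooth muscle gene with a CpG-poor deep start, and an exception. Mllt10, a partner of the Dot1l histone methyltransferase, had a peak of 14.3-fold at a start 9425 bases inside (chr2:18064335-18064584, plus strand, 36 CpG), and none within 500 bases of its start near the 5′ end (chr2:18054987-18055236, 5 CpG). The summit nearest to that 5′ start lay 1302 bases from it. Nav2, a neuron navigator gene, had 12.5-fold at a start 287126 bases inside (chr7:49245939-49246188, plus strand, 36 CpG), and none at the start by its 5′ end (chr7:48958823-48959072, 7 CpG). Csk, the kinase that restrains Src, had 12.3-fold at a start 7978 bases inside (chr9:57645654-57645903, minus strand, 16 CpG) and none at its 5′ end (chr9:57653632-57653881, 7 CpG).
Mllt10 deep start, peak: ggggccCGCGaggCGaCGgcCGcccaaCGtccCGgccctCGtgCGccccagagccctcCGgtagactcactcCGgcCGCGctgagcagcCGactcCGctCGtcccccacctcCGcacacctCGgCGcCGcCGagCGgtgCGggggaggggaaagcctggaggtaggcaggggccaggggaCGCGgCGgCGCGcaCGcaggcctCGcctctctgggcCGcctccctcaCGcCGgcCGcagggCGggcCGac
Mllt10 5′ end start, no peak: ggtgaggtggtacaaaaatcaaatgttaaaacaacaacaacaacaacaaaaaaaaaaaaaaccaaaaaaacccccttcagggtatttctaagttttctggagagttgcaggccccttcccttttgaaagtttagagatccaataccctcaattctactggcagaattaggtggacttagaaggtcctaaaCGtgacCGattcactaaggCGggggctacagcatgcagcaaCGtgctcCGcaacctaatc
Nav2 deep start, peak: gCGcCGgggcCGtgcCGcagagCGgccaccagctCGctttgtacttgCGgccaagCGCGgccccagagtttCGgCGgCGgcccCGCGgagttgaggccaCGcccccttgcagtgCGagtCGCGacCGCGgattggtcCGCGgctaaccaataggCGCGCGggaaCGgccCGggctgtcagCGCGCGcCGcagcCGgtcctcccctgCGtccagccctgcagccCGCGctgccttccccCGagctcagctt
Nav2 5′ end start, no peak: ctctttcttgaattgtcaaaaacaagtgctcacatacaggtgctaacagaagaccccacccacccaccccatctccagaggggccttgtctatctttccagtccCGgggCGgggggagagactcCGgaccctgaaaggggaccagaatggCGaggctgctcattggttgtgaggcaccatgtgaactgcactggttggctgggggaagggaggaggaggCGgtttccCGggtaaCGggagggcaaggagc
Csk deep start, peak: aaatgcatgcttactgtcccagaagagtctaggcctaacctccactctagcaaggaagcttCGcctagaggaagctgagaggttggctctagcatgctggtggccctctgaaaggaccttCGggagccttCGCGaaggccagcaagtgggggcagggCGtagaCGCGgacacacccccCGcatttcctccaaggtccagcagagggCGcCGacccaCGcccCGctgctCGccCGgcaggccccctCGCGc
Csk 5′ end start, no peak: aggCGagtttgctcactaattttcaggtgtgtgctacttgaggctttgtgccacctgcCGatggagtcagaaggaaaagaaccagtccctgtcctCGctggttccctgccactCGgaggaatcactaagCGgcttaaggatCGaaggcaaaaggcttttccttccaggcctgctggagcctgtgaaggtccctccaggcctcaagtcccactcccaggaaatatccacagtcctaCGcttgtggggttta

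The remaining pairs show that CpG number did not separate every start. Palld, which encodes the actin-binding protein palladin, had a weak peak of 4.32-fold at a start 142618 bases inside with only 6 CpG before it (chr8:61760090-61760339, minus strand), and none at its 5′ end (chr8:61902708-61902957, 2 CpG). Sema4b, a semaphorin gene, had 11.4-fold at a start 11718 bases inside (chr7:80198338-80198587, plus strand, 23 CpG), whereas the start at its 5′ end had 20 CpG and no peak (chr7:80186620-80186869).
Palld deep start, peak: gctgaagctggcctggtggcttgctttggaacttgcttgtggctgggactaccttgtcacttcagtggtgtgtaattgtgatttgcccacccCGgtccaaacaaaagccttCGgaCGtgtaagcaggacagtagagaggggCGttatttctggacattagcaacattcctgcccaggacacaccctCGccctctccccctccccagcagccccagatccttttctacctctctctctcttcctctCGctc
Palld 5′ end start, no peak: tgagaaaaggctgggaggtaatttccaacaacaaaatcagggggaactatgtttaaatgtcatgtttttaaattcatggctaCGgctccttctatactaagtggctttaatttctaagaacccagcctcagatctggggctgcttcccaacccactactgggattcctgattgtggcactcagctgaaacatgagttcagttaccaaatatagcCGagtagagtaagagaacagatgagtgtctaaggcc
Sema4b deep start, peak: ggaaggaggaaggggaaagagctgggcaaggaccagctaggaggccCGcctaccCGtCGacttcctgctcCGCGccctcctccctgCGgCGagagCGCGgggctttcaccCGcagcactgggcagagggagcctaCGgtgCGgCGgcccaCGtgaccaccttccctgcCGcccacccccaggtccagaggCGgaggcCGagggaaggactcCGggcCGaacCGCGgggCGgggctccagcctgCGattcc
Sema4b 5′ end start, no peak: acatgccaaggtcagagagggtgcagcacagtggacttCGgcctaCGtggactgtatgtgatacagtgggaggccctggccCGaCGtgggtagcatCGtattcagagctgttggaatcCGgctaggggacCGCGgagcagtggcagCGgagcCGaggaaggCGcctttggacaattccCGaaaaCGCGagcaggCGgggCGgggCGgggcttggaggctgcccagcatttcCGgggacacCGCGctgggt

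Summits sat on the starts themselves. For the 379 peaks the median distance to the start was 80 bases, and 133 summits lay within 50 bases of it. In the direction of transcription, 150 summits lay before the start and 225 after it, with 4 on it, and the median position was 28 bases after it (interquartile range −39.5 to 125.5). Beyond 500 bases the number fell off steeply: 17 of the 792 peaks lay 1001 to 2000 bases from a listed start and 23 lay 2001 to 5000 bases away.

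**Figure D1:**
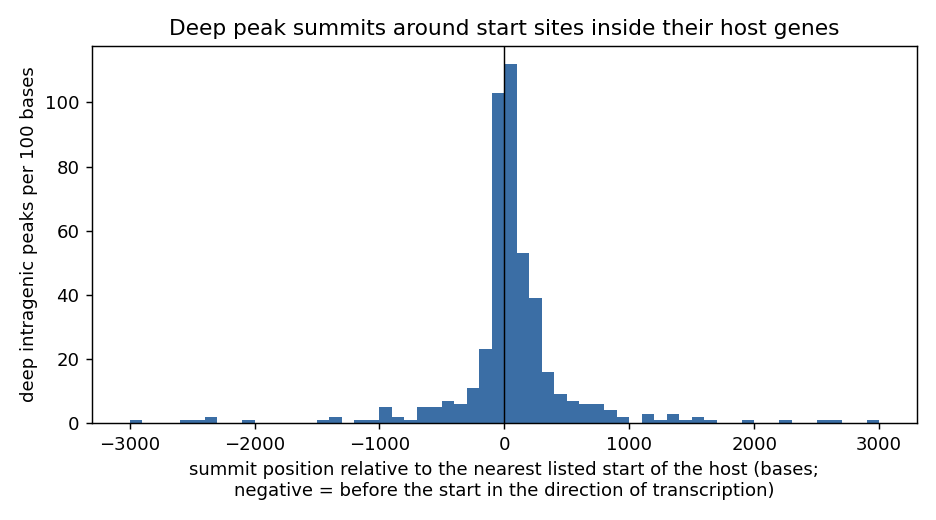
Position of deep peak summits relative to the nearest listed start of the host gene (x axis, bases, negative before the start; y axis, number of peaks per bin). The summits crowd around the start, with the median 28 bases after it for the 379 within 500 bases.

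Peaks at listed starts had higher values than the other deep peaks. Their fold enrichment, the authors' score of a peak over its local background, had a median of 6.12 (interquartile range 4.46 to 8.23). The other 595 deep peaks had a median of 4.80 (3.87 to 6.42), and 4.62 (3.87 to 6.17) for the 413 whose host is in the start table. For reference, peaks at protein-coding gene ends had 6.08 (4.61 to 8.05), and peaks between genes 4.79 (3.75 to 6.12). Median widths were 424 bases at deep starts and 324 in the other deep peaks, beside 451 at gene ends and 294 between genes. Thus the deep peaks at starts had medians close to those of gene ends, and the rest medians close to those of peaks between genes. The local background moved with the split, with a median of 8.55 at starts and 7.64 elsewhere. Its part in the difference was not tested.

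**Figure D2:**
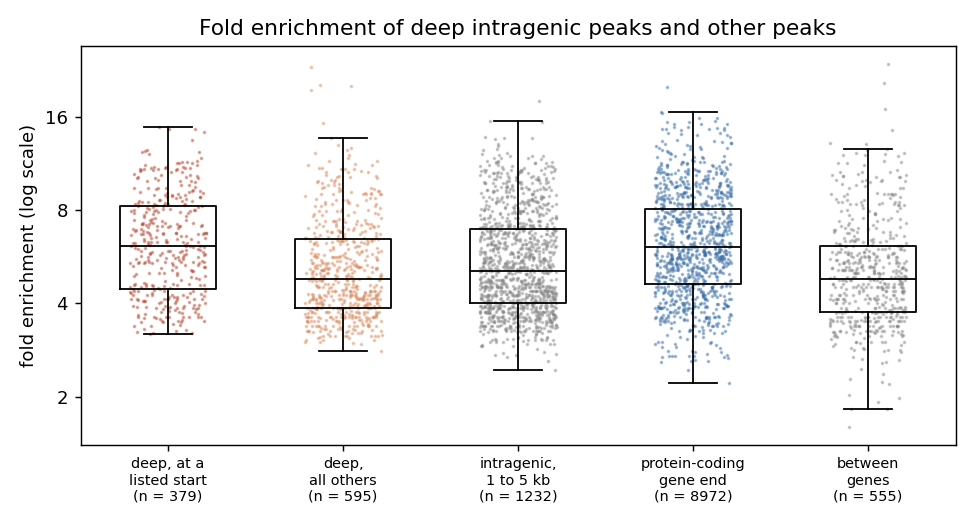
Fold enrichment (y axis, log scale) of deep intragenic peaks at a listed start, all other deep intragenic peaks, and 3 other classes of peak. Boxes show median and quartiles of all peaks, whiskers reach to 1.5 box lengths, and for gene ends only a sample of the dots is drawn. The medians are 6.12 at deep starts and 4.80 in the other deep peaks.

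Taken as a whole, the 974 deep peaks were 7.85% of the list (95% Wilson interval 7.39 to 8.33) and covered 409.5 kb. Their fold enrichment ran from 2.81 to 23.1 with a median of 5.25, and their width from 217 to 2045 bases with a median of 363. Narrow peaks were common: 335 were under 300 bases wide and 27 reached 900 bases. Peaks 1 to 5 kb inside genes, the nearest class by position, had a median fold of 5.10 and a median width of 400 bases. In that class 512 of 985 with a host in the table (52.0%) lay at a listed start. Those 512 had a median fold of 6.19 and a median width of 448.5 bases, and the other 720 of the class 4.53 and 362.5 bases. The difference between peaks at starts and the rest was thus not particular to deep peaks.

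Peaks lay close to each threshold on both sides. Just beyond 5 kb were peaks in Slc29a2 (5009 bases from an end, 5.08-fold), Bhlhb9 (5022, 4.37-fold) and Srsf11 (5027, 6.79-fold). Just within it were, among others, Mad2l2 (4990, 4.50-fold) and Podnl1 (4982, 3.37-fold). For the 1 kb rule, Plcb3 (1023 bases, 4.55-fold), Macf1 (1032, 7.85-fold) and Nrg2 (1041, 3.83-fold) stood inside, and Aff3 (998, 5.25-fold), Dixdc1 (995, 4.37-fold) and Sri (992, 8.67-fold) outside. The members with the highest local background lay in Tmem267 (20.9), Cpeb2 (19.3) and Ubtf (16.4). All 9 peaks left out lay in Tmem267 (background 24.2 to 27.4) or Sfi1 (75.4 to 132.5).

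The next question was how many of the starts deep inside genes were open. RefSeq listed 2043 starts of protein-coding genes that lie more than 5 kb from both ends of their gene and more than 1 kb from any gene end. Of these, 428 (20.9%, 95% Wilson interval 19.2 to 22.8) had a peak summit within 500 bases, compared with 541 of 1506 starts 1 to 5 kb inside (35.9%) and 7422 of 16995 starts within 1 kb of the end of their gene (43.7%). Deep starts were poorer in CpG: the 300-base window around them held a median of 6 CpG, against 15 for starts at gene ends.

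The share of starts with a peak rose with CpG number both deep inside genes and at gene ends. Among deep starts with at least 20 CpG in the window, 293 of 350 (83.7%) had a peak, and among such starts at gene ends 5459 of 6543 (83.4%). With 10 to 19 CpG the shares were 113 of 347 (32.6%) and 1722 of 3632 (47.4%). With 4 to 9 CpG they were 21 of 756 (2.78%) and 223 of 2881 (7.74%). With 0 to 3 CpG they were 1 of 590 (0.169%) and 18 of 3939 (0.457%). Deep starts with a peak had a median of 25 CpG and a GC content of 66.3%, those without one 5 CpG and 50.3%. GC content can also alter amplification and sequencing of a fragment, and its part in these shares was not tested. Among the 379 peaks, the median fold was 6.57 where the nearest start had at least 20 CpG (263 peaks), 5.25 with 10 to 19 (99 peaks) and 4.59 with fewer (17 peaks).

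**Figure D3:**
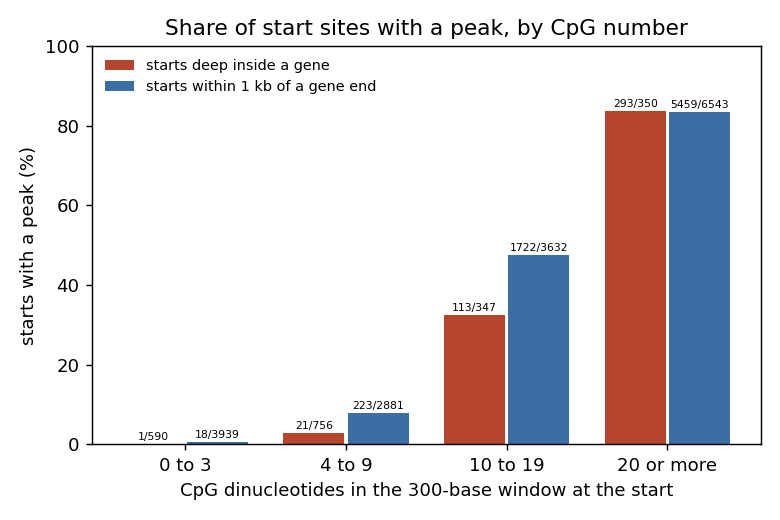
Share of RefSeq start sites with a peak summit within 500 bases (y axis, percent) by the number of CpG dinucleotides in the 300-base window (x axis), for starts deep inside a gene and starts within 1 kb of a gene end. Numbers above the bars are starts with a peak over all starts; with at least 20 CpG the shares are 83.7% and 83.4%.

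The share of start windows with a short motif differed by motif. Each of the 17 was searched on both strands, and a match is a description of letters only. The GC box GGGCGG, a core of Sp and Klf factor sites, was in 77.1% of the 428 deep start windows with a peak, 19.8% of the 1615 without one and 46.7% of all 21045 windows of protein-coding genes. The ETS core CCGGAAG was in 10.3%, 2.66% and 11.7% of them. The NRF1 motif was in 8.64%, 0.867% and 6.44%. Other motifs were rarer in windows with a peak: AGAACA, part of the site shared by progesterone and glucocorticoid receptors, was in 8.18%, 22.9% and 16.3%, and the GATA core AGATAA in 3.50%, 12.4% and 9.68%. The AP-1 letters TGANTCA were in 4.44%, 9.85% and 7.04%, and the E-box CAGCTG, which is richer in G and C, in 14.0%, 22.1% and 15.7%. The cAMP response element TGACGTCA, which holds a CpG, was in 1.40%, 1.30% and 2.26%. The GC box, the ETS core and the NRF1 motif each hold a CpG, so base composition bears on their shares, and matches to different motifs may overlap. The windows cover starts only, so nothing is said of the 595 deep peaks not placed at a listed start. The hosts of 182 of these are not in the start table.

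Most genes with an open deep start had no peak at their 5′ end, and the same held for genes whose listed deep starts were not open. There were 357 genes with a deep peak at a listed deep start, and 120 of them (33.6%) had a peak within 1 kb of the 5′ end of the gene, while 3 (0.84%) had one at the 3′ end. In the 1168 genes with listed deep starts of which none was at a deep peak, 482 (41.3%) had a peak at the 5′ end. A start within 1 kb of the 5′ end was listed for 166 of the 357 genes. It had a peak in 69 (41.6%) and none in 97. Among all listed starts within 1 kb of the end of their gene, counted per start, 43.7% had a peak. Thus in 97 genes the deep start was open and the listed outer one was not called. For 117 genes the open deep start was the only start listed. RefSeq spans include predicted transcripts, which can place a gene's end far before its usual start. A predicted transcript was present for 710 of the 825 host genes (86.1%) and for 66.9% of the other protein-coding genes over 10 kb. Host genes had a median of 7 transcripts and the others 3.

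In 55 genes, at least 2 listed deep starts lay within 500 bases of a deep peak, but mostly as close neighbours that 1 peak can cover. The outermost of these starts were more than 1 kb apart in 6 genes, Abr, Dab2ip, Dnmt3a, Fgf13, Lmna and Palld. Abr, a regulator of small GTPases, had 3 deep peaks, each at a listed start, of 7.73-fold, 7.32-fold and 3.60-fold, the last at a start with 9 CpG in its window. Dnmt3a, the de novo DNA methyltransferase, had peaks of 6.35-fold and 4.04-fold at starts and another of 3.46-fold, 683 bases from a start. Other genes had a peak at 1 deep start and at the 5′ end: Adk, the adenosine kinase gene, had 14.6-fold at a start 23.6 kb inside and 3.43-fold at its 5′ end. In Pcgf5, a Polycomb group gene, the values were 12.1-fold, at a deep start with 35 CpG in its window, and 5.32-fold.

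Deep peaks at starts lay toward the 5′ side of their genes, and the others were spread more evenly. By definition, peaks at starts can lie only where RefSeq lists starts. The position of all listed deep starts, with or without a peak, is not given here for comparison. Where the strand was listed and the peak had 1 host, 260 of 377 peaks at starts (69.0%, 95% Wilson interval 64.1 to 73.4) were nearer the 5′ end than the 3′ end. Of the other deep peaks, 208 of 407 (51.1%, 46.3 to 55.9) were nearer the 5′ end, with 110 (27.0%) in the 25% of the gene next to the 5′ end and 78 (19.2%) in the 25% next to the 3′ end. The median distance from the 5′ end was 18.04 kb at starts and 30.4 kb elsewhere, and that from the 3′ end 39.0 and 38.6 kb, in hosts of 67.4 and 93.6 kb.

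The strongest deep peaks lay away from listed starts. The first was in Zc3h7a, a zinc finger gene (chromosome 16, 11143904 to 11144324), at 23.1-fold with a pileup of 366, second in the entire list. Chl1, a neural cell adhesion gene, followed at 20.3-fold (chromosome 6, 103648959 to 103649413), then Cdk8, a Mediator kinase, at 20.1-fold (chromosome 5, 146260941 to 146261397). A peak that lies in both Cmss1 and Filip1l had 19.5-fold (chromosome 16, 57391297 to 57391722). These 4 also had the highest −log10 q-values of the deep peaks, from 241.7 to 350.4, although they were only 421 to 457 bases wide. The nearest listed start of the host lay between 29904 and 138296 bases away. Beyond the background limit, no filter for repeated sequence or regions of anomalous signal was applied here. Whether reads that map to several places contributed to these values was not tested. No other deep peak exceeded 15.2-fold, the value in Kctd16, whose host is not in the start table.

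Below them, peaks at starts made up most of the strongest peaks whose host is in the table. Dcakd (14.8-fold), Dgkz, a diacylglycerol kinase gene (14.6), Adk (14.6) and Mllt10 (14.3) were followed by Igsf11 (13.4), Nav2 (12.5), Nktr (12.4), Stag1, a cohesin subunit gene (12.3), Csk (12.3) and Pcgf5 (12.1), all at a listed start. Arid1b, a subunit gene of the SWI/SNF chromatin remodeller, had 12.2-fold 194827 bases from its nearest listed start. Hosts outside the start table among the strongest 20 were Kctd16, Ets1 (13.7), an ETS family transcription factor, Fam13b (12.9), Prdm2 (12.7) and Psd3 (12.4).

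Other peaks stood out by width or depth in the gene. The widest was in Cpeb2, an mRNA-binding protein gene (2045 bases, 7.10-fold), then Zfp800 (1331 bases, 8.61-fold, at a start), Zfhx3 (1311 bases, 4.82-fold), Slc39a10, a zinc transporter gene (1180 bases, 10.2-fold, at a start), and Kbtbd11 (1148 bases, 4.76-fold). Farthest from any end of its host was a peak in Nkain2, 549840 bases away (5.62-fold). Peaks in Nrxn3 (522600 bases, 3.37-fold), Opcml (521991, 5.75-fold), Robo2 (519724, 6.87-fold) and Ptprd (508574, 9.64-fold), all genes of neuronal adhesion or guidance, came next. The Nrxn3 and Robo2 peaks were at listed starts.

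Of 13846 protein-coding genes over 10 kb, the shortest that can hold a deep peak, 825 held at least 1 (5.96%). Most, 698, held 1; 105 held 2 and 22 held 3 or more. Hosts were long, with a median of 72.1 kb against 33.4 kb for all genes over 10 kb. The share of genes with a deep peak rose with length, from 1.67% at 10 to 20 kb to 7.82% at 50 to 100 kb and 19.4% above 500 kb. Per Mb of gene interior in which a deep peak could fall, the number fell with length, from 4.06 at 10 to 20 kb to 1.60 at 50 to 100 kb and 0.326 above 500 kb. Deep peaks not placed at a listed start, including those whose host is not in the start table, fell likewise, from 2.35 to 0.251 per Mb. A peak within 1 kb of either end was found for 42.5% of host genes and 53.2% of the other genes over 10 kb, with 52.5% over all of them.

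Some hosts held runs of deep peaks. Bcor, an X-linked corepressor gene that acts with Polycomb, held the most, 6, none at a listed start: 5 of them lay within a short stretch 69205 to 83116 bases from its 5′ end, with folds of 3.93, 3.60, 5.21, 3.58 and 3.22, and 1 lay 26941 bases from it (3.28-fold). Rreb1, a Ras-responsive zinc finger gene, held 3 weak peaks around a listed start (4.08, 5.22 and 3.46-fold) and a strong one farther inside, away from any listed start (11.2-fold). Dab2ip, a Ras GTPase-activating gene, held 4 from 3.98 to 6.25-fold, of which 2 were at starts. Zfhx3, a large zinc finger homeobox gene, held 4 from 3.75 to 6.10-fold, with 1 at a start. Arhgap23, a GTPase-activating protein gene, held 4 from 4.03 to 5.49-fold, and Zfp978 held 4 from 2.99 to 4.09-fold. In these 6 genes 1 peak exceeded 10-fold, and the others reached at most 6.25-fold. Over all deep peaks, 106 (10.9%) had another peak of the list within 1 kb, and the median distance to the next peak was 30.2 kb.

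**Figure D4:**
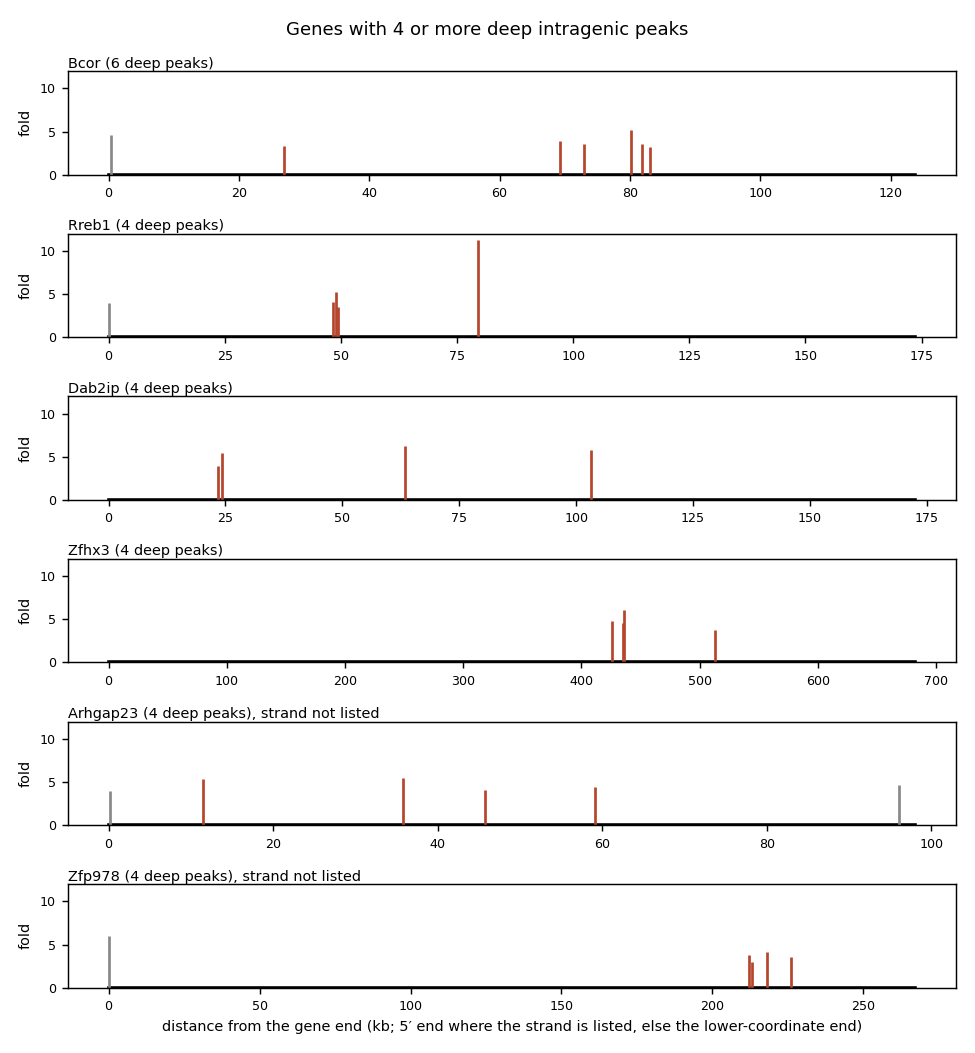
Peaks in the 6 genes with 4 or more deep intragenic peaks (x axis, kb from the gene end; y axis, fold enrichment). Red lines are deep peaks and grey lines other peaks of the list; of the deep peaks shown, 1 in Rreb1 exceeds 10-fold.

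Gene groups differed in how often they held a deep peak. Because long genes offer more room, each count is set beside 5.96% for all genes over 10 kb and beside the share that all genes give when weighted to the lengths of the group. Developmental transcription factors stood highest, with 26 of 88 (29.5%; 11.2% by length). They included Ets1 (13.7-fold), Tead3, a Hippo pathway factor (8.44), Sox13 (8.26), Nfatc2 (7.36), Runx2 (7.30) and Tcf7l2, a Wnt effector (7.12, at a start). Meis1, Meis2 and Meis3, homeobox factors, had none. The Runx genes all had deep peaks: besides Runx2, Runx1 had 2 (5.81 and 4.85) and Runx3 had 2 (4.60 and 4.14, both at starts). Other families went the other way: the Klf, Mef2, Tshz and Glis genes of the list had none. Of the 26, 8 had a peak at a listed deep start, although some, such as Ets1, are not in the start table.

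Regulators of chromatin and of the cytoskeleton followed. Chromatin regulators had a deep peak in 16 of 63 (25.4%; 8.59% by length), led by Arid1b (12.2-fold), Kdm4c (11.3, at a start) and Kdm2b (10.1, at a start), both histone demethylase genes, Jarid2, a Polycomb partner (8.26), Chd9 (7.95) and Hdac4 (7.07, at a start). Brd2, which binds acetylated histones, and the acetyltransferase gene Crebbp had none. Small GTPase regulators and cytoskeletal genes also had 16 of 63 (25.4%; 11.7% by length), among them Arhgef7 (10.5, at a start), the cytolinker Dst (9.39, at a start), Arhgap26 (9.01), Macf1 (7.85) and Abr (7.73, at a start), and Arhgap1, Arhgap5 and Arhgap10 had none.

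Nuclear receptors and their coregulators had a deep peak in 10 of 44 (22.7%; 9.19% by length), none of them at a listed start, although some, such as Nr3c1, are not in the start table. Nr4a1, a nuclear receptor outside the list, had a deep peak of 6.75-fold at a listed start. Rara, a retinoic acid receptor, had 3 (8.63, 4.94 and 4.43-fold), and no gene-end peak. Rora, an orphan receptor of the clock, had 8.60-fold 636026 bases past its nearest listed start. Nr3c1, the glucocorticoid receptor, had 7.74-fold, Nr4a2 6.82, Nr5a2, needed for ovulation and decidualization, 5.87 and Rarg 5.32. Pgr, Esr1 and Esr2, the receptors of progesterone and oestrogen, had no deep peak.

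Receptivity and decidualization genes had a deep peak in 5 of 40 (12.5%, Wilson interval 5.46 to 26.1%, which holds the 7.41% by length). They were Lif, the cytokine that triggers implantation (8.99-fold), Sgk1, a steroid-induced kinase (8.08, at a start), Lifr, the Lif receptor (7.90, at a start), Ptch1, the hedgehog receptor (7.36), and Gli2, a hedgehog effector (3.62). Both the ligand Lif and its receptor thus had one: in Lif 9206 bases from its listed start, in Lifr at a start 39.0 kb inside. Il6st and Stat3, of the same pathway and list, had a gene-end peak but no deep peak. Pgr, Gli1 and Gli3 had none. Clock, stress and immediate early genes had 4 of 22 (18.2%; 6.88% by length): Tef (9.37), Rora, Sgk1 and Arntl, the core clock activator also called Bmal1 (6.82), of which Tef, Sgk1 and Arntl had it at a start. Clock, Npas2 and Per1 had none.

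In the list of Wnt, BMP, TGF-beta, Hippo and Notch genes, few held a deep peak and most had a peak at an end. A deep peak was present in 2 of 58 (3.45%, Wilson interval 0.951 to 11.7%). The share by length, 8.08%, lies within that interval. The 2 were Tead3 and Rbpj, the DNA-binding factor of Notch signalling (5.74, 5.54 and 3.24-fold within 1.79 kb). A gene-end peak was present in 54 of 58 (93.1%, against 52.5% of all genes over 10 kb). Wnt4, Wnt5a and Wnt7a had no deep peak. The list does not hold every gene of these pathways: outside it, Wnt6 and Wnt9b each had a deep peak of 5.37-fold at a listed start. Growth factor receptors and Ras pathway genes had 4 of 51 (7.84%; 8.26% by length): Irs1 (7.13), Insr, the insulin receptor (5.70), Grb10 (4.79) and Axl (4.37), with none in Egfr, Erbb2 or Erbb3.

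Among cell type markers, smooth muscle genes had a deep peak in 7 of 41 (17.1%; 10.2% by length): Tpm1, tropomyosin (9.83), Ldb3 (8.90), Tns1, tensin (7.54), Cacna1c, the L-type calcium channel (5.48, at a start), Palld (4.32, at a start) and Prkg1, the cGMP-dependent kinase (4.00, at a start), as well as Speg. None was in Myh11, Mylk or Cald1. Stroma and matrix genes had 0 of 39 (Wilson interval to 8.97%; 7.75% by length), with the collagen genes Col1a1, Col1a2 and Col3a1 among them, while 17 had a gene-end peak. With peaks from 2 kb inside the gene counted, 2 of the list held one. Matrix genes outside the list did hold deep peaks, such as Col8a2, a short-chain collagen gene (7.39 and 3.65-fold), and Adamts20, a matrix protease gene (9.39-fold, at a start). Epithelial genes had 3 of 23 (13.0%; 6.85% by length), among them the tight junction scaffolds Tjp3 (8.59) and Tjp1 (8.34, at a start), and none in Epcam, Cdh1 or Krt7. Endothelial genes had 4 of 26 (15.4%, against 7.25% by length): Ets1, Egfl7 (6.75, at a start), Tal1 (6.37) and Ptprb (5.37), with none in Pecam1, Cdh5 or Kdr. The length-weighted share lay within the Wilson interval for smooth muscle (8.53 to 31.3%), epithelial (4.54 to 32.1%) and endothelial genes (6.15 to 33.5%).

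Immune, blastocyst, neural and other organ genes had shares below the length-weighted ones, but each length-weighted share lay within the group's Wilson interval. Immune genes had 2 of 27 (7.41%; 7.82% by length), Dock2 (5.25) and Runx3, and none in Ptprc, Cd3e or Cd3g. Blastocyst markers had 0 of 7 (Wilson interval to 35.4%; 5.69% by length), with none in Elf5, Tfap2c or Gata3. Long neural genes had 7 of 42 (16.7%, against 18.6% by length). Among them were Chl1 (20.3), Ptprd (9.64), Opcml (5.75), Macrod2 (3.87), Ctnna3 (3.50) and Nrxn3, with none in Nlgn1, Dlg2 or Csmd1. The Chl1 peak is among the strongest deep peaks above, to which no filter for repeated sequence or anomalous signal was applied. Genes of other organs had 1 of 27 (3.70%; 7.08% by length), Ryr1, the calcium release channel of skeletal muscle (5.47), and none in Alb, Apob or Cps1. Groups share members; of those with a deep peak, Ets1, Tead3, Runx3, Gli2, Rora and Sgk1 each counted in 2. No group was tested against the others.

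**Figure D5:**
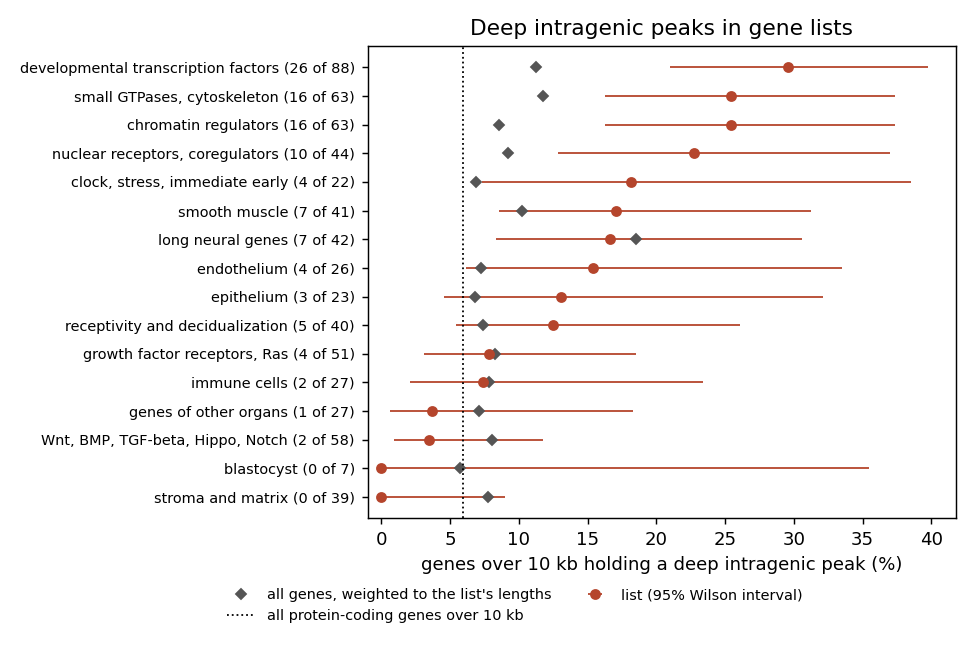
Share of genes over 10 kb that hold a deep intragenic peak (x axis, percent) in 16 gene groups, with 95% Wilson intervals (red), the share of all genes weighted to the lengths of the group (grey diamonds), and 5.96% for all genes over 10 kb (dotted line). Developmental transcription factors lie highest, at 29.5%, and stroma and matrix genes at 0 of 39.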

How the data were processed

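DNA from 3 whole uteri was profiled by FAIRE-seq after 9 min in 1% formaldehyde, per the labels' protocols. FastQC, Bowtie2, HOMER and MACS2 (no versions) and build GRCm38.p5 stand in the submitters' processing notes. Which threshold, control or pooling the calls used is not stated there. The authors deposited 1 table. Its pileup was taken as coverage signal at the summit, its fold enrichment is a ratio over local background, and its significance is read from −log10 of a q-value, all as named per the file headers. Depth is unknown.

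Genes and start sites came from RefSeq GRCm38.p6, in which the primary chromosomes keep the coordinates of p5. The 340 genes with a start below 3 Mb, which carry scaffold coordinates, were left out, leaving 49214, of which 21523 are protein-coding; 17274 of these had a listed start. A start was called open with a summit of any peak within 500 bases. Windows ran from 250 bases before a start to 50 after it. Medians, shares and Wilson intervals were computed with Python 3.11.15, pandas 2.3.3 and SciPy 1.17.1.

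The members, the 16 gene lists (764 of 766 symbols matched) and 17 motifs were chosen with earlier results of these data known. Genes were named by rule: the 20 strongest peaks, the 5 widest, the 5 with the highest −log10 q, the 5 deepest, genes with at least 4 deep peaks, up to 6 members with a deep peak per list by fold and the first 3 of the list without one (the order was added later), and 3 peaks on each side of a threshold. Some genes that the rule picks are not reported here. Any other gene was picked with its values known. The length-weighted shares and the use of start sites were added after the data were seen. The planned sequence analysis of peaks became one of start windows. On simulated peaks, 200 of 200 deep ones and 0 of 800 others were called deep.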

Additional observations from a re-analysis of the deposited data

How the results depend on the processing

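No paired analysis was possible because there is 1 group and the table holds no values per sample. Moving the distance from host ends to 10 kb, the deep peaks made up 5.44% of the list, 47.0% of hosts had a gene-end peak and 4.07% of genes over 10 kb held a deep peak. At 2 kb there were 1501 deep peaks (12.1% of the list), 36.9% of hosts had a gene-end peak and 8.59% of genes held one. In the 50% of the list with the highest −log10 q there were 393 (6.33%), with a median fold of 7.89, a median width of 484 bases, 19.8% of hosts with a gene-end peak, 2.70% of genes with a deep peak and 65.3% of deep peaks at a listed start. In the 50% with the highest fold there were 399 (6.43%), with values of 7.84, 482 bases, 20.2%, 2.80% and 65.1%. The medians rise there because weak peaks are left out. Weak gene-end peaks are left out as well, and the share of other genes with a gene-end peak at these settings is not given here. With gene-end windows of 2 kb, 46.2% of hosts had an end peak, and 7.64% of genes over 20 kb held a deep peak. The share at a listed start, a result added after seeing the data, was 40.5% within 250 bases and 53.3% within 1000 bases. A distance of 2 kb from any gene end, no background limit, a limit of 15, the summit in place of the centre, and scaffold genes kept left all 7 summary values and 16 list counts within their limits (1.5 times for counts, the 95% interval otherwise). Counts of list members with a deep peak moved by more than 1.5 times for 5 of the 16 lists at 10 kb, 5 at 2 kb, 9 with the highest −log10 q, 10 with the highest fold and 2 in genes over 20 kb. At 10 kb receptivity went from 5 to 2, and at 2 kb to 8, Wnt and related pathways from 2 to 6 and stroma from 0 to 2. In both top 50% sets immune genes went from 2 to 0 and neural genes from 7 to 2, and developmental transcription factors from 26 to 12 and 13. Motifs in peaks and a 300-base peak window were not run, since no genome was used here, nor was leaving out a replicate.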

Other observations

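Of the X chromosome's 254 peaks, 28 (11.0%) were deep, against 5.89% on chromosome 3 and 9.99% on chromosome 8, the lowest and highest of the autosomes. Bcor alone held 6 of the 28; without them the share was 22 of 248 (8.87%), within the range of the autosomes. Only 20 of 565 X-linked protein-coding genes over 10 kb (3.54%) held a deep peak, against 4.25% on chromosome 3 and 8.25% on chromosome 18, the lowest and highest of the autosomes.

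Gnas, an imprinted gene with several promoters, held 3 deep peaks. A peak of 4.77-fold lay 243 bases before a deep start with 40 CpG in its window, and one of 3.62-fold lay 468 bases after it. The third, of 3.86-fold, was 15418 bases from its nearest listed start. The start listed at the 5′ end of the gene had no peak within 500 bases.

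Of the deep peaks, 260 (26.7%) had a local background within 0.01 of the lowest in the list, compared with 17.7% of all peaks.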
